A study of Homo sapiens with 6 samples.

Results

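Caspases are the cysteine proteases that carry out apoptosis and inflammatory cell death, and APAF1 is the scaffold on which CASP9 is activated. The genes described here were chosen by name and comprised CASP8 and CASP10 (initiators at death receptors), CASP9, APAF1 and CASP2 (initiators and scaffold of the mitochondrial and stress routes), CASP6 (executioner group) and CASP1 and CASP4 (inflammatory caspases), which made 8 of the 20461 genes of the expression table. PANC1 is an established human pancreatic carcinoma cell line. Cells were grown for 24 h and then received 0.1% DMSO as vehicle or 50 nM gemcitabine, a deoxycytidine analogue that blocks DNA synthesis, for 48 h. RNA-seq was carried out on 2 vehicle and 2 gemcitabine libraries of this one line, and DNaseI-seq, which maps open chromatin, on 1 library per condition. The study calls the RNA libraries of a condition biological replicates, but the labels do not say whether they came from separate cultures, so p-values measured only the spread between these libraries.

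Caspases are made as inactive zymogens, and most of their control lies in cleavage and in binding to adaptors and inhibitors. Death receptors recruit CASP8 and CASP10 through FADD, whereas cytochrome c released from mitochondria assembles APAF1 and CASP9 into the apoptosome. Both routes end at executioner caspases, which cut nuclear lamins and other proteins. Inflammatory caspases instead cut gasdermin D, and CASP1 matures the cytokines IL1B and IL18. RNA levels, as measured here, say nothing of cleavage or activity.

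The vehicle libraries held 15153593 and 15766237 fragments assigned to genes and the gemcitabine libraries 13194533 and 13275457, so 3 fragments, the floor used for a count of 0, stood for 0.190 to 0.227 CPM (counts per 1000000 fragments). This floor covers counting error only. The epithelial keratins KRT7, KRT8 and KRT18 were high (KRT7 mean FPKM, fragments per kilobase of transcript per 1000000 fragments, of 1604 in vehicle and 1494 in gemcitabine), while KRT19 (3.14 and 6.37 FPKM) and EPCAM (3.58 and 2.43 FPKM) were low. The 6 blood and immune markers summed to 5 and 2 fragments under vehicle and to 10 and 7 under gemcitabine, with CD3E and LYZ at 0 in every library. The endothelial marker CDH5 had at most 3 fragments. The small rise of the immune sum went the same way as the inflammatory caspases below, and its part in their results was not tested.

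After gemcitabine, CASP10, CASP1, APAF1, CASP4 and CASP9 transcripts were higher, and no member was lower past the test. All 8 genes passed the filter of at least 10 fragments over the 4 libraries and were tested by the edgeR quasi-likelihood test, with Benjamini-Hochberg adjustment over 14854 genes and a threshold of 0.05. The 5 genes compare with 18.5% of all tested genes that were higher at this threshold, and the 0 that were lower compare with 20.0%. CASP10 and CASP1 also met the study's further criteria, here applied with the edgeR fold of fragments. The study took its q-values from Cuffdiff, which was not run here, so these are not the study's own calls. The criteria were a fold change over 1.5, a mean FPKM of at least 0.1 in 1 condition and a difference of at least 1 FPKM. Upward, 5.69% of tested genes met them, and downward 0 members met them, against 4.43% of tested genes. With the fold taken from mean FPKM instead, an alternative chosen after seeing the data, CASP4 and CASP9 met them too, which made 4 members higher against 8.09% of tested genes and 0 lower against 3.16%. Scaled counts of the conditions did not overlap for 5 members on the higher side, against 34.9% of all genes, and for 1 member, CASP2, on the lower side, against 34.8%. In an alternative test with limma on log2(FPKM + 1), 1 member passed, and with a pseudocount of 0.1, 0 passed. Of the members that edgeR did not call lower, CASP2 alone was lower at an unadjusted p under 0.05 (1 member), and DESeq2 and limma on log2(FPKM + 1) called 0 lower. The median log2 fold change was 0.318 over the 8 members and 0.007 over all tested genes. The members were chosen with earlier results of these data known, so these comparisons with all genes are descriptive only. In bulk RNA, a change in the number of cells that express a gene and a change in RNA per cell cannot be told apart.

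**Figure D1:**
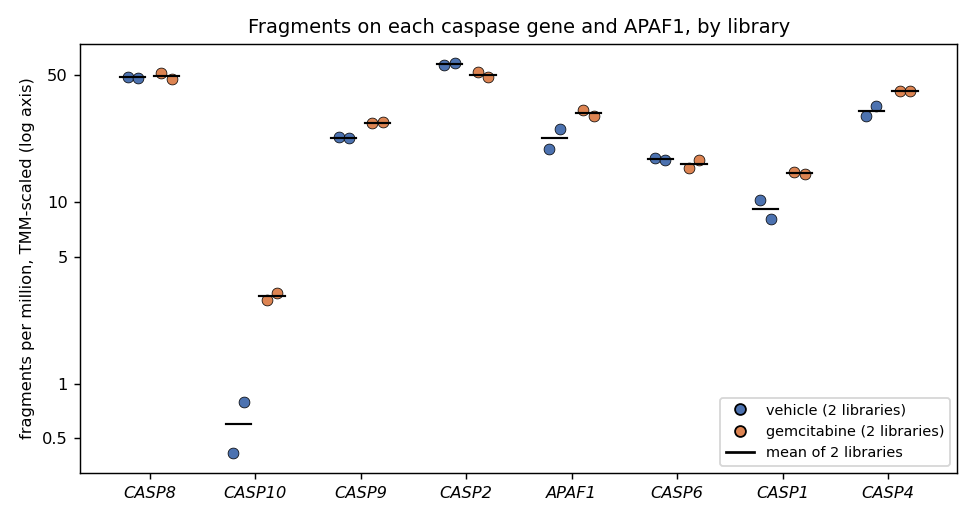
CPM scaled by TMM (log axis) for each member in the 2 vehicle and 2 gemcitabine libraries, each point being 1 library and each line a mean. CASP10 was the lowest member in every library, at 0.413 and 0.788 in vehicle and 2.88 and 3.16 in gemcitabine, and the points of CASP8 and CASP6 overlapped between conditions.

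CASP10 rose and CASP8, its neighbour and paralogue, showed no change past the test. CASP10, an initiator with death effector domains that is absent from the mouse genome, went from 6 and 12 fragments (vehicle) to 40 and 43 (gemcitabine). Both gemcitabine libraries lay well above both vehicle libraries. Its log2 fold change was 2.31 (SE 0.384, 95% interval 1.49 to 3.13, edgeR adjusted p = 0.000283), a fold of 4.94 that was higher than that of 98.8% of tested genes. It nevertheless remained the member with the lowest level per length, at 0.285 ± 0.26 FPKM in vehicle and 1.65 ± 0.16 FPKM in gemcitabine (mean ± SD, n = 2 each).

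CASP8, the main initiator caspase of death receptor signalling, had 706 and 734 fragments in vehicle and 713 and 647 in gemcitabine. Scaled by TMM, its values were 48.59 and 48.2 CPM in vehicle and 51.38 and 47.51 in gemcitabine, so the conditions overlapped. Its fold change was 0.03 on the log2 scale, with a 95% interval of -0.14 to 0.20 (edgeR adjusted p = 0.787). The genes lie side by side on the plus strand of chromosome 2 in hg19, with CFLAR, a catalytically inactive relative that restrains CASP8, at 201980877 to 202041410, CASP10 at 202047595 to 202094151 and CASP8 at 202098166 to 202226559. CFLAR rose by a log2 fold change of 0.36 (SE 0.0973, edgeR adjusted p = 0.00909), from 329 and 384 fragments to 442 and 403, a call lost without either vehicle library (adjusted p = 0.152 and 0.0527), in DESeq2 (adjusted p = 0.0613) and in limma on FPKM (adjusted p from 0.537 to 0.678).

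In the DNaseI libraries, a gemcitabine peak at chr2:202122456-202123753, with a MACS score (10 times the negative log10 of the peak p-value) of 119.72, covered 9 annotated starts of CASP8, and the nearest vehicle peak was 188300 bases from the gene's canonical start. No peak of either list lay within 1 kb of a CASP10 start; from the canonical start the nearest was 110905 bases away in vehicle and 74592 bases away in gemcitabine. The CASP8 peak ended 1506 bases upstream of the gene's canonical start. The reference promoter window inside this peak, shown because the peak covers all of it, is a RefSeq window (250 bases before to 50 after the start, GRCh38.p14). It was placed by an exact single match in hg19 at chr2:202122508-202122807, plus strand. Other CASP8 windows, at chr2:202097936-202098235 and, around the canonical start, at chr2:202125009-202125308, had 0 bases in a peak of either list. The GC content of the shown window was 43.0% with 5 CpG, against medians of 58.7% and 14 over all 35116 promoter windows. Capitals mark the match to the AP-1 letters TGANTCA, which occur on either strand in 7.7% of all windows.
CASP8: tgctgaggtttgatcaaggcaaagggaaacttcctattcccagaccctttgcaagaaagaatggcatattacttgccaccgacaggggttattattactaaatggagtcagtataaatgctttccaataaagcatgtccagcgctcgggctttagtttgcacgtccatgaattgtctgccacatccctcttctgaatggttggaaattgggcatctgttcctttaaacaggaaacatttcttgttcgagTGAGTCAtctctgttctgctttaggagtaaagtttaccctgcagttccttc

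On the mitochondrial route APAF1 and CASP9 rose, each by less than 1.5-fold in fragments, whereas CYCS, described below, was lower in the same test. APAF1 had 283 and 386 fragments in vehicle and 446 and 404 in gemcitabine, or 19.5 and 25.4 against 32.1 and 29.7 scaled CPM. Every gemcitabine value was above both vehicle values, although the vehicle libraries lay further apart than the gemcitabine libraries. The log2 fold change was 0.46 (SE 0.117, 95% interval 0.21 to 0.71, edgeR adjusted p = 0.00601), a fold of 1.38. Without vehicle library 1 it was 0.29 and no longer passed (adjusted p = 0.153). APAF1 shares 750 exon bases with ANKS1B on the opposite strand, which rose by 0.36 on the log2 scale (edgeR adjusted p = 0.0176), and the strand setting of the counting is not given in the sources used here, so reads of the shared bases cannot be told apart.

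CASP9, the protease that APAF1 activates, had 329 and 344 fragments in vehicle and 379 and 373 in gemcitabine. Its scaled values agreed closely within each condition, at 22.6 and 22.6 against 27.3 and 27.4 CPM. The log2 fold change of 0.27 (SE 0.0937, 95% interval 0.07 to 0.47, edgeR adjusted p = 0.0314) corresponded to a fold of 1.21. This call was lost without either vehicle library (adjusted p = 0.161 and 0.168) and in DESeq2 (adjusted p = 0.182). CASP9 shares 101 exon bases with CELA2B on the opposite strand, which had at most 17 fragments in any library.

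CASP2, which is activated on the PIDD1 and CRADD platform after DNA damage and extra centrosomes, had 821 and 880 fragments in vehicle and 717 and 664 in gemcitabine. Its scaled values of 56.5 and 57.8 against 51.7 and 48.8 CPM did not overlap. A log2 fold change of -0.19 (SE 0.0755, 95% interval -0.35 to -0.03) did not pass the test (edgeR adjusted p = 0.0643). It passed when gemcitabine library 1 was left out (adjusted p = 0.0222).

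These 3 genes each had a gemcitabine DNaseI peak within 1 kb of a start that had no overlapping vehicle peak. The CASP2 peak, chr7:142984587-142985797 (score 77.97), ran from position -857 to 353 relative to the canonical start, and the APAF1 peak, chr12:99038486-99039342 (score 75.51), from -582 to 274. CASP9 was the only member with a peak in both lists. Its vehicle peak, chr1:15852622-15853911 (score 112.58), overlapped a gemcitabine peak at 15852631 to 15853892 (score 79.09), both upstream of the canonical start. A further gemcitabine peak at chr1:15850118-15852198 (score 57.99) spanned the canonical start.

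A window inside the peak of each gene is given in the same RefSeq form, each lying wholly within a gemcitabine peak and outside every vehicle peak. CASP2 is at chr7:142985194-142985493 (plus strand), APAF1 at chr12:99038818-99039117 (plus strand) and CASP9 at chr1:15850661-15850960 (minus strand). A second CASP9 window, chr1:15851236-15851535 with 9 GC boxes, also lay wholly in that peak and is not printed. A second CASP2 window, chr7:142986431-142986730, had 0 bases in a peak of either list. Unlike the CASP8 window the printed windows of CASP2, APAF1 and CASP9 were rich in GC, at 71.3%, 71.3% and 76.0%, with 35, 42 and 36 CpG. Capitals mark matches on either strand to the GC box letters GGGCGG (4 matches in CASP2, 1 in APAF1 and 8 in CASP9), the E2F letters TTCCCGC (1 in CASP2) and the ETS letters CCGGAAG (1 in CASP9), and overlapping GC boxes run together. Such matches occur in 45.0%, 6.6% and 10.3% of all windows.
CASP2: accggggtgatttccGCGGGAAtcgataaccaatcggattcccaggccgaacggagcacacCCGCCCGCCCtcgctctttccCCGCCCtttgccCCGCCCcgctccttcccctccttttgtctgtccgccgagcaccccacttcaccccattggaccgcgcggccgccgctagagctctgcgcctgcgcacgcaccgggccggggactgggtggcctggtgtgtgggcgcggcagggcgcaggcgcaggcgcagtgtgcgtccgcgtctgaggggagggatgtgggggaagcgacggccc
APAF1: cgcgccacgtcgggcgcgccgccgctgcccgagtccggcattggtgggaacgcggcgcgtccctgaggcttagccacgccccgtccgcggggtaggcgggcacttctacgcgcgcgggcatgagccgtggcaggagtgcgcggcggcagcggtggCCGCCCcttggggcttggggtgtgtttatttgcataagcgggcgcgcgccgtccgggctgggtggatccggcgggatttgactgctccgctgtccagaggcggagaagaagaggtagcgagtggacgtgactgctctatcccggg
CASP9: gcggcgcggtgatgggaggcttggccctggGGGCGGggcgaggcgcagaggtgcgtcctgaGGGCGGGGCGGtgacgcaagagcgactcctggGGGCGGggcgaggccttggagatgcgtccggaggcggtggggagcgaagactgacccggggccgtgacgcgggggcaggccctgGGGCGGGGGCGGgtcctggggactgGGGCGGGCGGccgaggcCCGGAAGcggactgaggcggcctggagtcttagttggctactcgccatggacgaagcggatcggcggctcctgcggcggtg

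Of the executioner group, CASP6, which cuts lamin A, had 253 and 258 fragments in vehicle and 214 and 233 in gemcitabine. Scaled values were 17.4 and 16.9 against 15.4 and 17.1 CPM, and the conditions overlapped. Its log2 fold change was -0.08 (95% interval -0.32 to 0.16, edgeR adjusted p = 0.621), and 0.03 when libraries were scaled by their totals or tested on FPKM. CASP6 shares 98 exon bases with MCUB on the opposite strand, which rose by 0.52 on the log2 scale (edgeR adjusted p = 0.0468). No DNaseI peak of either list lay within 1 kb of a CASP6 start.

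The inflammatory caspases both rose. CASP1, the inflammasome protease, had 148 and 122.3 estimated fragments in vehicle and 202 and 194 in gemcitabine, or 10.2 and 8.03 against 14.6 and 14.3 scaled CPM. All gemcitabine values were above all vehicle values. The log2 fold change was 0.66 (SE 0.144, 95% interval 0.36 to 0.97, edgeR adjusted p = 0.00218), and without vehicle library 2 it was 0.51 and no longer passed (adjusted p = 0.0845). CARD16, a decoy that binds CASP1, is closely related to the first part of the CASP1 coding sequence, and whether reads were divided between the genes was not tested. CARD16 itself had 7 and 2 fragments in vehicle and 9 and 11 in gemcitabine and did not pass the test (edgeR adjusted p = 0.136).

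CASP4, which binds bacterial lipopolysaccharide in the cytosol and cuts gasdermin D, had 434 and 511 fragments in vehicle and 564 and 557 in gemcitabine. Scaled, these were 29.9 and 33.6 against 40.6 and 40.9 CPM, again without overlap. The log2 fold change was 0.36 (SE 0.0886, 95% interval 0.17 to 0.55, edgeR adjusted p = 0.00492), a fold of 1.285. The call was lost without vehicle library 1 (adjusted p = 0.116). The genes lie on the minus strand of chromosome 11 in hg19, CASP4 at 104813593 to 104840093, CASP5 at 104864962 to 104893895, CASP1 at 104896124 to 104905977 and CARD16 at 104912053 to 104972158. CASP5, between them, had too few fragments to be tested.

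The gemcitabine library had a DNaseI peak at the CASP4 start, chr11:104838980-104839567, with a score of 52.25, close to the lowest score of 50 in the lists. The nearest vehicle peak was 78365 bases from that start. No peak of either list lay within 1 kb of a CASP1 start; from the canonical start the nearest vehicle peak was 11795 bases away and the nearest gemcitabine peak 66304 bases away. The CASP4 window, chr11:104839252-104839551 on the minus strand, lay wholly within the gemcitabine peak and held 39.7% GC and 3 CpG, nearer to CASP8 than to the GC-rich windows above. Capitals mark its single GC box.
CASP4: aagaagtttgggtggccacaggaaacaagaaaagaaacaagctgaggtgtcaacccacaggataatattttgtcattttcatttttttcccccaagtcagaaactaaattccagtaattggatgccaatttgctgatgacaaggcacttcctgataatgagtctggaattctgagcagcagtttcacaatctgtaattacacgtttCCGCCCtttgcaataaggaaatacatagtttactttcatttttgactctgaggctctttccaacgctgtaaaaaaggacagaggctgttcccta

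Taking the DNaseI lists as a whole, 1 of 8 members (CASP9) had a vehicle peak within 1 kb of an annotated start, against 21.9% of 19619 genes, and 5 (CASP2, CASP4, CASP8, CASP9 and APAF1) had a gemcitabine peak, against 25.3%. A gemcitabine peak without a vehicle peak was found at 4 members (CASP2, CASP4, CASP8 and APAF1), against 8.72% of genes. With 1 library per condition these shares have no replicate check and no test, and a start without a listed peak may hold signal under the authors' threshold. The gemcitabine list was also the longer, with 10695 peaks (median score 73.77) against 9606 (median score 71.06). When only scores of at least 100 were counted, a gemcitabine peak without a vehicle peak was left at 1 member, CASP8, against 3.86% of genes, and CASP9 became a member with a vehicle peak alone, against 2.4% of genes. The transcripts did not follow a single order with these peaks. APAF1 and CASP4 rose, CASP8 and CASP2 did not pass, and CASP10 and CASP1, which had the highest fold changes, had no peak within 1 kb. CASP9 rose and had peaks in both lists, with a further gemcitabine peak over its canonical start. CASP6 did not pass and had no peak within 1 kb.

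**Figure D2:**
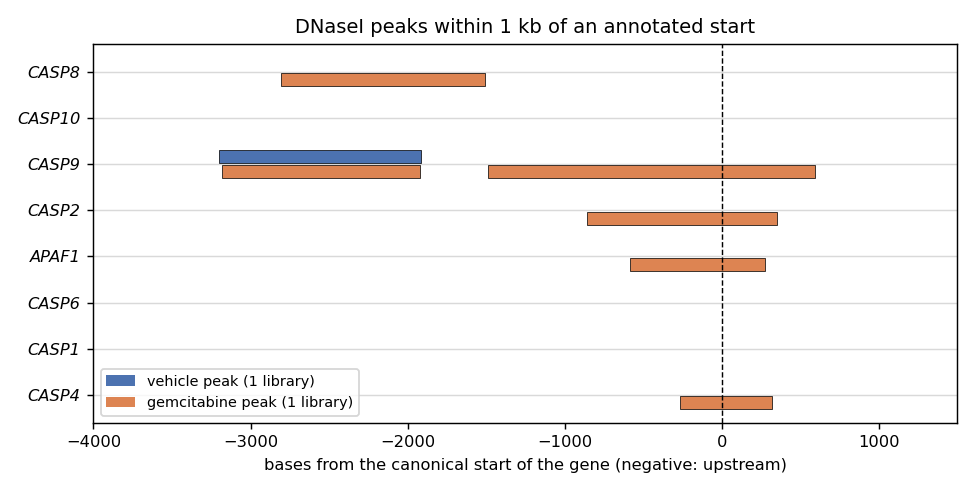
DNaseI peaks within 1 kb of an annotated start of each member, drawn as bars by distance in bases from the canonical start, with negative values upstream and 1 library per condition. Gemcitabine peaks were listed at 5 members and a vehicle peak at CASP9 alone.

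Per length of transcript, CASP4 was the highest member in both conditions, at 60.9 ± 14.4 FPKM in vehicle and 101 ± 10.6 FPKM in gemcitabine (mean ± SD, n = 2 each, here and below). CASP8 followed in both, at 30.1 ± 1.72 and 35.1 ± 3.32 FPKM. In vehicle the order went on with CASP6 (26.4 ± 3.51), CASP2 (12.8 ± 0.293), CASP9 (11.0 ± 1.59), CASP1 (10.3 ± 2.69), APAF1 (8.70 ± 0.062) and CASP10. The library values of CASP8 and CASP6, of CASP9 and CASP1, and of CASP1 and APAF1 overlapped, so those neighbours did not differ beyond their spread. In gemcitabine the order after CASP8 was CASP6 (27.3 ± 6.49), CASP1 (21.7 ± 4.88), CASP9 (16.9 ± 0.947), APAF1 (13.0 ± 0.195), CASP2 (12.2 ± 0.319) and CASP10. CASP1 thus stood above CASP2 after gemcitabine and below it in vehicle, and its library values overlapped those of CASP6 in gemcitabine. Every member other than CASP10 was above 8 FPKM in each library.

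The deposited FPKM gave larger changes than the fragments for several members. The ratio of mean FPKM, gemcitabine over vehicle, was 2.106 for CASP1, 1.666 for CASP4, 1.535 for CASP9 and 1.498 for APAF1. The folds in fragments, scaled by TMM, were 1.585, 1.285, 1.21 and 1.38. On the log2 scale the FPKM ratios were 1.074, 0.736, 0.618 and 0.583, and the TMM-scaled folds 0.664, 0.362, 0.274 and 0.461. With libraries scaled by their totals in edgeR, the log2 folds were 0.775, 0.472, 0.384 and 0.572. That scaling also moved the median of all tested genes from 0.007 to 0.117. Dividing CPM by FPKM gives the transcript length, in bases, that the authors' isoform estimate implied. This length fell from a mean of 861 to 704 bases for CASP1, from 510 to 420 for CASP4 and from 2004 to 1690 for CASP9. The log2 changes of -0.29, -0.281 and -0.246 were lower than those of all but 8.4%, 8.8% and 10.5% of 13211 genes, whose quartiles were -0.101 and 0.057. The nearest library values of the conditions were nevertheless close, at 800 and 800 bases for CASP1, 456 and 455 for CASP4 and 1793 and 1775 for CASP9. CASP10 had vehicle lengths of 3905 and 1621 bases, on few fragments, and 1717 and 2105 in gemcitabine. For CASP2, APAF1 and CASP6 the log2 changes lay between -0.01 and 0.006. How much isoform use, the length estimate or the library scaling added to these differences was not tested.

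**Figure D3:**
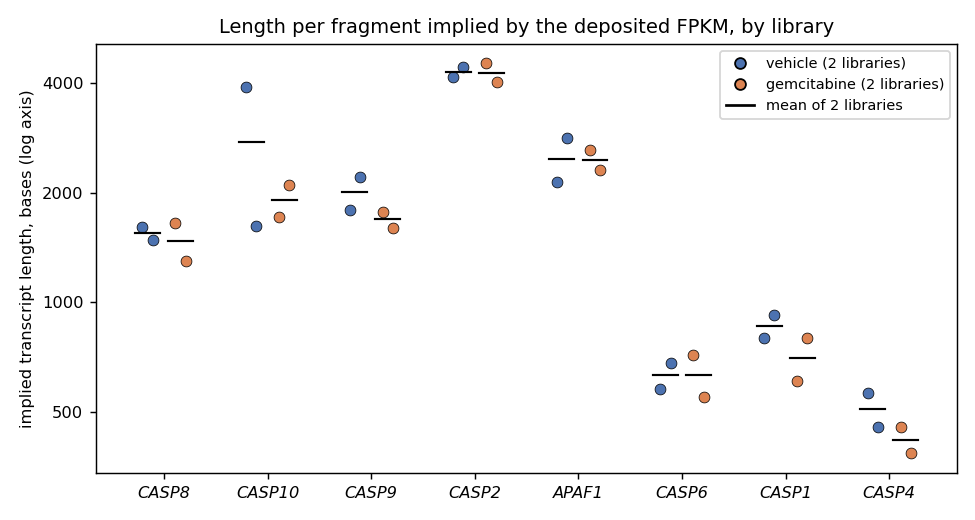
Transcript length in bases implied by the deposited FPKM (log axis) for each member, each point being 1 of 2 vehicle or 2 gemcitabine libraries and each line a mean. CASP1 went from a mean of 861 to 704 bases and CASP4 from 510 to 420, while CASP2 stayed near 4289 and 4268.

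Other genes of the pathway moved in both directions. A list of 42 genes in 6 roles, all but CARD17 analysed here, had 35 genes with enough fragments, of which 10 were higher and 8 lower at the threshold, where 18.5% and 20.0% of all tested genes were, with a median log2 fold change of 0.185. By the study's criteria, applied with the edgeR test and fold in place of Cuffdiff, 4 were higher (BIRC3, BIRC7, IL1B and IL18) and 2 lower (LMNB1 and DFFB). Of all tested genes, 5.69% and 4.43% met these criteria. LMNB1 did not meet them with the fold of FPKM. The 3 other caspases of the list, CASP5, CASP12 and CASP14, had too few fragments to be tested.

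Of the 3 mitochondrial activators, CYCS, the cytochrome c that triggers APAF1, fell by 0.19 on the log2 scale (2119 and 2404 to 1827 and 1828 fragments, edgeR adjusted p = 0.0372), a call lost without either vehicle library (adjusted p = 0.107 and 0.373) and turned to 0.024 by limma on FPKM. DIABLO, which blocks the inhibitor proteins, had a log2 fold change of 0.15 and did not pass, although it did when libraries were scaled by their totals (edgeR adjusted p = 0.0199). Among 9 tested adaptors and platform proteins 2 were higher, NLRP1 and RIPK1, and 0 lower, against 18.5% and 20.0% of all tested genes. NLRP1, an inflammasome sensor upstream of CASP1, went from 424 and 506 to 713 and 530 fragments (log2 fold change 0.53, SE 0.117, edgeR adjusted p = 0.00239), and did not pass without vehicle library 1 (adjusted p = 0.113). FADD, the death receptor adaptor, had a log2 fold change of 0.20 and did not pass, although it did with that scaling (edgeR adjusted p = 0.0258) and without gemcitabine library 1 (adjusted p = 0.0272).

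Of the 7 inhibitors tested, 4 were higher (BIRC2, BIRC3, BIRC7 and CFLAR) and 1 lower (BIRC6, -0.33), against 18.5% and 20.0% of all tested genes. BIRC3, a ubiquitin ligase at TNF receptors, went from 168 and 183 to 370 and 388 fragments (log2 fold change 1.22, SE 0.108, edgeR adjusted p = 1.16e-06). It did not pass in limma on FPKM (adjusted p from 0.0651 to 0.173). BIRC7 went from 7 and 11 to 85 and 34 fragments (2.82, SE 0.458, edgeR adjusted p = 0.000233), with its gemcitabine libraries far apart. BIRC5, at log2 0.03, did not pass.

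Among the 14 genes listed as substrates 4 were higher and 6 lower, against 18.5% and 20.0% of all tested genes. The list includes DFFB, the nuclease partner of the substrate DFFA. The 3 listed substrates of the inflammatory caspases rose: IL18 from 223 and 243 to 616 and 522 fragments (log2 fold change 1.40, edgeR adjusted p = 2.25e-07), IL1B from 19 and 15 to 56 and 59 (1.86, adjusted p = 0.000193) and GSDMD by 0.49, as did GSDME (0.42), another pore-forming gasdermin. Among the substrates of the executioner caspases, LMNB1 fell from 3640 and 3497 to 1753 and 2129 fragments (-0.76, SE 0.0889, edgeR adjusted p = 1.22e-05). The LMNB1 call was lost in limma on FPKM (adjusted p from 0.0773 to 0.145). DFFB is the nuclease released by executioner cleavage of its inhibitor DFFA, and DFFA is the protein cut. DFFB fell from 169 and 209 to 111 and 82 fragments (-0.85, SE 0.166, edgeR adjusted p = 0.000977). Without vehicle library 2 its log2 fold change was -0.72 and the call was lost. PARP1, DFFA, ROCK1 and PAK2 were lower by smaller amounts, at -0.30, -0.20, -0.30 and -0.30. LMNA, the lamin A gene and most abundant substrate, had -0.10 and did not pass (adjusted p = 0.297).

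**Figure D4:**
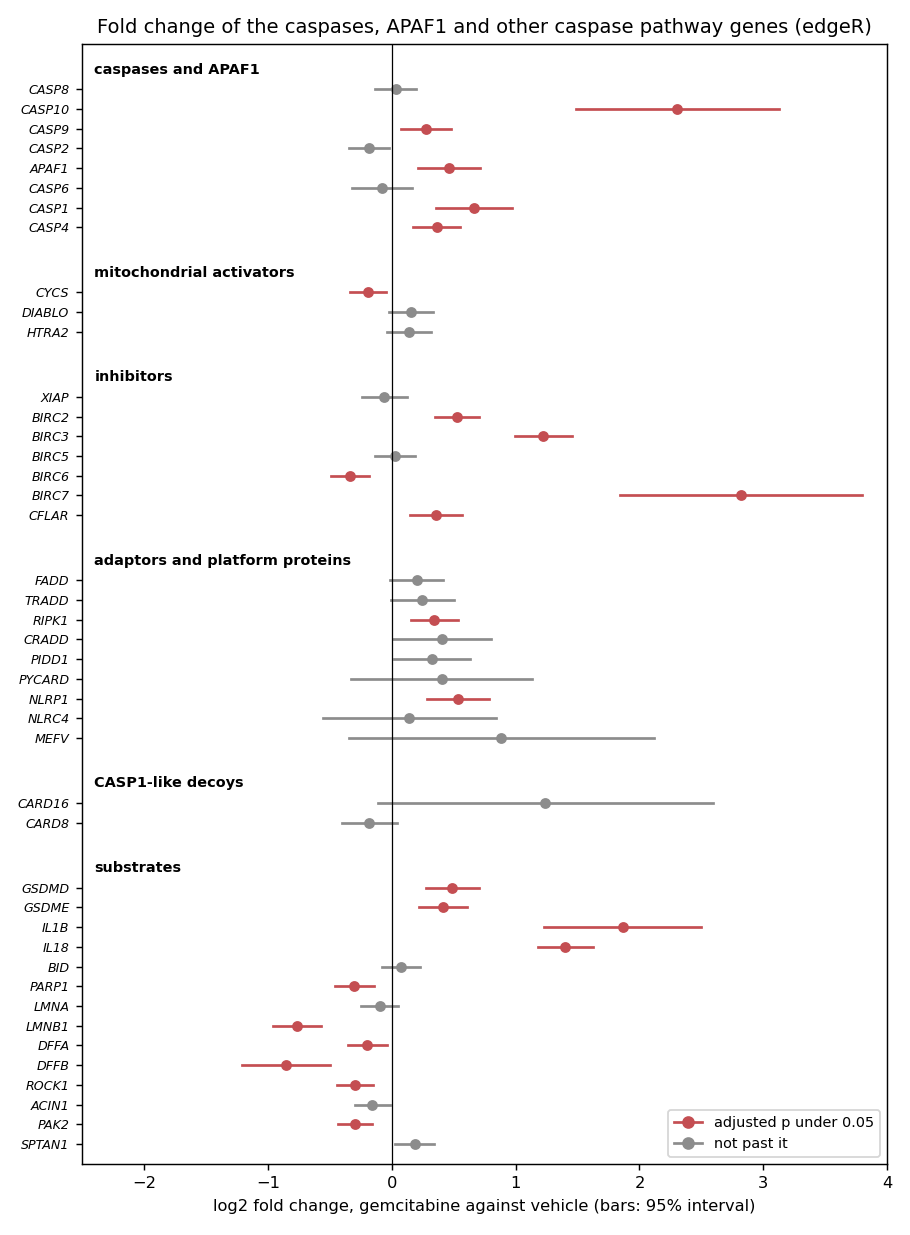
Log2 fold changes, gemcitabine against vehicle, for the 8 members and the 35 tested genes of the pathway list, with 95% intervals from edgeR and red points for an adjusted p under 0.05. BIRC7, at 2.82, and CASP10, at 2.31, had the largest values, and both intervals lay above 0, whereas the wide interval of CARD16 (-0.11 to 2.59) included it.

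For each member the pathway or member gene with the nearest pattern over the 4 libraries was also found, as the root mean square distance between log2 CPM centred on their means. CASP10 lay nearest to IL1B (0.437), CASP1 to GSDMD (0.133), CASP4 to CFLAR (0.041) and APAF1 also to CFLAR (0.097). CASP9 lay nearest to TRADD (0.03), CASP2 to ACIN1 (0.024), CASP6 to LMNA (0.012) and CASP8 to BIRC5 (0.005). The distance for CASP10 was by far the largest, so it had no close partner among the 40 genes compared. With 4 libraries in 2 conditions these distances describe mainly the shared change between conditions.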

How the data were processed

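RNA was measured in 2 vehicle and 2 gemcitabine libraries of PANC1 cells and open chromatin in 1 library each. Single-end reads had been mapped by the authors with TopHat2 2.0.8 (hg19), who deposited estimated counts (raw fragments) and FPKM per gene from Cuffdiff 2.0.2 on Gencode 15 protein-coding genes; 2 further columns of scaled fragments were not used. The deposited peak lists give a MACS score (10 times the negative log10 p, threshold p of 1e-05) for each condition; the MACS version and DNaseI aligner are not given in the sources used here. Estimated counts were rounded. The edgeR 4.0.16 quasi-likelihood test (TMM, R 4.3.3) covered each gene whose 4 libraries summed to 10 fragments or more; limma 3.58.1 on log2(FPKM + 1 or 0.1) and DESeq2 1.42.0 were alternatives. The fits were tested on simulated counts. The limma fold changes are on the log2(FPKM + pseudocount) scale, which with a pseudocount of 1 understates changes of low genes.

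The members, the pathway list and the marker list were chosen with earlier results of these data known. Results for some genes are not reported here, and those genes were taken off the pathway list. The text names the 8 members, the pathway genes that met the study's criteria, the 2 most abundant genes of each role, each member's nearest gene and the overlapping genes; further pathway genes that passed the test (BIRC2, BIRC6, RIPK1, GSDMD, GSDME, PARP1, DFFA, ROCK1 and PAK2) were named after their values were seen. Starts, gene positions and shared exon bases came from Gencode 44 on hg19, whereas the authors counted fragments on Gencode 15. The shared bases may therefore differ from those of the counted gene models. Libraries are numbered by the table's own index, which could not be tied to the labels' replicate numbers. The chi-square of the 2 libraries of a condition, per gene, was 2.17 in vehicle and 5.16 in gemcitabine, above sampling noise. The libraries were counted separately, but this value cannot tell whether they came from separate cultures.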

Additional observations from a re-analysis of the deposited data

How the results depend on the processing

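The most calls were lost when both the test and the unit were changed. With limma on log2(FPKM + 1), log2(FPKM + 0.1) and log2(FPKM + 1) at a mean FPKM of at least 0.1, the members with an adjusted p under 0.05 numbered 1, 0 and 2 in place of 5 and those called by the study's criteria 0, 0 and 1 in place of 2, while the pathway genes numbered 2, 0 and 6 in place of 18, and 2 and 0 in place of 6 were called under the first 2. Under these settings CASP1 was at 1.01, 1.07 and 1.01, CASP4 at 0.74, 0.75 and 0.74 and CASP9 at 0.58, 0.62 and 0.58, none past the threshold; CASP10 (1.06 and 2.37) passed only with the filter (adjusted p = 0.034) and APAF1 (0.58) missed it only with 0.1. Of the 6 pathway genes called in edgeR, BIRC3 and LMNB1 passed in none of these limma fits. BIRC7, IL18 and DFFB passed only with the filter, and IL1B missed only with 0.1. NLRP1, past the threshold in edgeR, passed in none of them either. CASP9 was at 0.28 in DESeq2 without passing. Whether the test or the unit lowered these counts was not tested. Taking the fold from mean FPKM, chosen after seeing the data, raised the called members from 2 to 4.

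Leaving out 1 library at a time, with the remaining library assumed to vary like the other condition, gave 2 to 6 members (2 without vehicle library 1, 3 without vehicle library 2) and 8 to 21 pathway genes (10 and 8), and log2 fold changes of 0.51 to 0.85 for CASP1, -0.23 to -0.14 for CASP2, 0.29 to 0.46 for CASP4, -0.15 to -0.004 for CASP6, -0.025 to 0.089 for CASP8, 0.27 to 0.28 for CASP9, 1.93 to 2.85 for CASP10 and 0.29 to 0.67 for APAF1. CASP10 passed in every such fit, and APAF1 met the study's criteria without vehicle library 2. CASP8 turned to -0.025 and BIRC5 to -0.034 (range to 0.091) without gemcitabine library 1. Scaling by library totals moved the median log2 fold change of all genes to 0.12 (0.105 in limma with the filter), raised the pathway genes past the threshold from 18 to 24 and the called ones from 6 to 9, and turned CASP6 to 0.031 and LMNA to 0.013; limma turned CASP6 to 0.03 and 0.031, CYCS to 0.024, CARD8 to 0.31 and 0.34 and LMNA to 0.072. With peak scores of at least 100, gemcitabine peaks stood at 1 member in place of 5, and those without a vehicle peak at 1 in place of 4.

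A replicate block by the table's index left 5 members past the threshold, with CASP10 at 2.32 and CASP1 at 0.67, and changed no other call. The index shares only a number between conditions: deviations from the condition means correlated at -0.062 over 10373 genes. At 13194533 to 15766237 fragments, depth limits CASP10 most, whose vehicle values rest on 6 and 12 fragments.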
